A study of Mus musculus with 6 samples.

Results

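The androgen and steroid receptor axis was followed here through 7 genes, Srd5a1, Srd5a2, Esr1, Esr2, Pgr, Nr3c1 and Fkbp5, which were chosen by name among the 36163 gene names of a mouse expression array. All 12 non-control probes that carry one of these names were kept, out of 55681 probes. Of these 12 probes, 10 passed the filter on dim signals, and every one of the 7 genes had at least 1 probe among them. The arrays compare 2 populations sorted from the prostates of male FVB/N Tg 11.5kb-GFP mice at 6 days of age, without treatment. In this transgenic line eGFP is driven by the promoter of s-SHIP, a short form of the phosphatase SHIP1, so that GFP reports activity of the transgene promoter and not the s-SHIP protein. Cells without lineage markers that carried Sca-1 and CD49f, the LSC basal population, were gated into LSC GFP+ cells, in which the promoter is active, and LSC GFP- cells, in which it is not. There were 3 independent samples per population, each amplified and hybridized to its own array with 1 colour. Both populations thus share the strain, the transgene, the age, the tissue and the surface markers and differ in the GFP gate.

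Steroid hormones act in target tissue through nuclear receptors, which are held by heat-shock chaperones until a ligand binds and which then occupy DNA and switch genes. Testosterone reaching the prostate is reduced to the stronger androgen dihydrotestosterone by 5α-reductases, the type 1 enzyme encoded by Srd5a1 and the type 2 enzyme by Srd5a2. In the developing prostate the type 2 enzyme is known chiefly from the mesenchyme around the buds, and androgen signals from that mesenchyme guide the budding epithelium. Esr1 and Esr2 encode the estrogen receptors α and β, Pgr the progesterone receptor and Nr3c1 the glucocorticoid receptor. Fkbp5 encodes FKBP51, a co-chaperone of steroid receptors that is itself switched on by several of them.

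The signal came from 60-base probes, and 3 of them are given because their letters lie in the coding sequence and the results for Srd5a2, Esr1 and Pgr rest on them. They are written 5′ to 3′ as the array design prints them, at their mm9 positions. The Srd5a2 probe (chr17:74367046-74367105, minus strand) reads an open frame that ends in a stop codon, which is set in capitals. The probes of Esr1 (chr10:5489352-5489411, minus strand) and Pgr (chr9:8961434-8961493, plus strand) lie in the part of the gene that encodes the ligand-binding domain.
Srd5a2 A_55_P2145287: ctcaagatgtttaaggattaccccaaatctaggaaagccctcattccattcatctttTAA
Esr1 A_55_P2030883: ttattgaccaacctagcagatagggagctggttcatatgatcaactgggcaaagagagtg
Pgr A_51_P213476: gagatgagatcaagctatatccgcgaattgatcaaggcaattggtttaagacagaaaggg

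The measured signals of the 2 reductase genes differed between the populations in opposite directions, though neither passed after adjustment over all probes. No probe of the 5 other genes passed an unadjusted p of 0.05. Srd5a1 was higher and Srd5a2 lower in LSC GFP+ cells. For both, the 3 measured values of one population lay entirely on one side of the 3 of the other. The LSC GFP+ values of Srd5a2 were not above background. At that unadjusted threshold in limma's moderated test, 2 of the 10 probes tested were called, beside 7.9% of the 37005 probes tested on the whole array. Without overlap between the populations were 2 of the 10, beside 12.3% of all probes. Srd5a2 is one of the 2 in both counts and passed the filter through the LSC GFP- arrays alone, so these counts are a description only, and with signal above background required on all 6 arrays 1 member probe, that of Srd5a1, was called. After Benjamini-Hochberg adjustment over all probes no member passed 0.05, beside 0.0027% of all probes. All levels below are log2 signals with the 75th percentile of the array subtracted, so that 0 stands for that percentile, and all differences are LSC GFP+ minus LSC GFP- on the same scale.

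**Figure D1:**
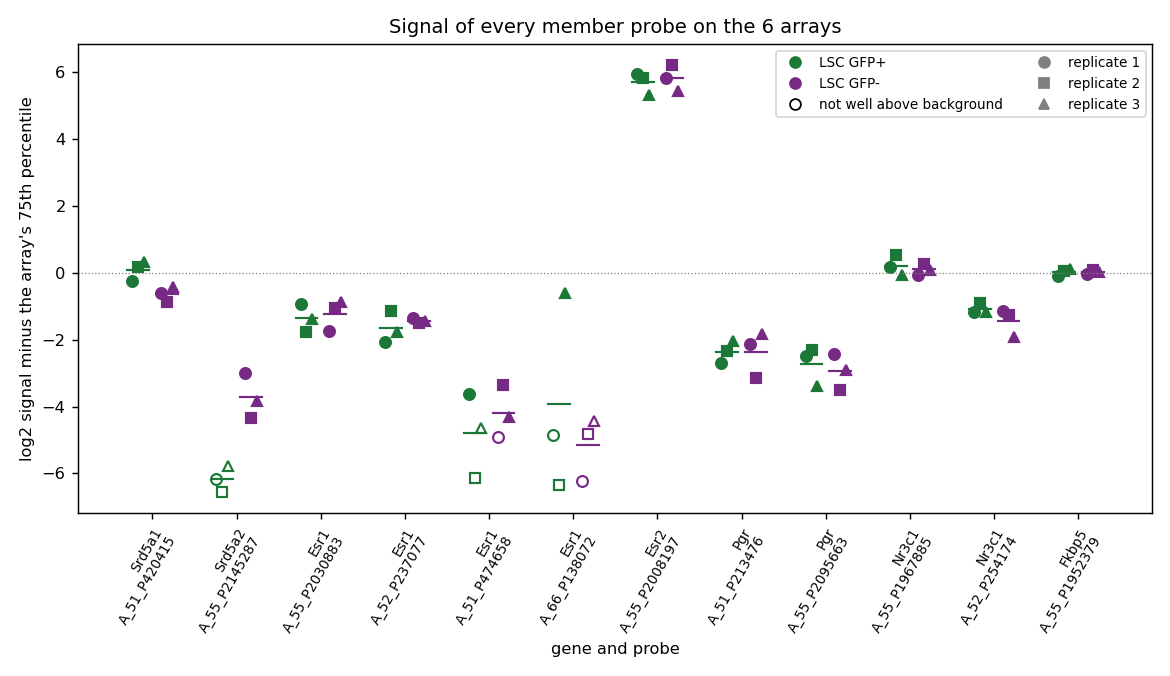
The log2 signal minus the array's 75th percentile is plotted for the 12 member probes on the 6 arrays, with a bar at the mean of each population and open symbols where the scanner software did not mark the spot as well above background. The LSC GFP- arrays lie above the LSC GFP+ arrays for Srd5a2 and below them for Srd5a1, and the populations overlap at the other probes.

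Srd5a1, the type 1 reductase, was measured by 1 probe, A_51_P420415 on chromosome 13 of mm9 from 69712376 to 69712435, starting at base 2556 of its transcript in the array design. In LSC GFP+ cells its log2 level was -0.24, 0.16 and 0.33 in replicates 1, 2 and 3. In LSC GFP- cells it was -0.59, -0.88 and -0.41. The probe was well above background on all 6 arrays, and the highest LSC GFP- array, replicate 3, stayed below the lowest LSC GFP+ array, replicate 1. The means were 0.09 ± 0.29 and -0.63 ± 0.23 (SD, n = 3 each), a difference of 0.71 with a standard error of 0.23 and a 95% interval from 0.17 to 1.25, or 1.64-fold. Limma gave it an unadjusted p of 0.0162 and an adjusted p of 0.414, so the difference did not pass the test across the array. The unadjusted call depended on single arrays. Leaving out LSC GFP+ replicate 2 brought the unadjusted p to 0.0506 at a difference of 0.671. Leaving out LSC GFP+ replicate 3 brought it to 0.0599 at 0.585, and leaving out LSC GFP- replicate 2 to 0.0668 at 0.584.

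Srd5a2, the type 2 reductase, is represented by the stop codon probe printed above. Its processed signal, in the linear units of the scanner, was 5.52, 5.30 and 7.55 in LSC GFP+ replicates 1, 2 and 3. In LSC GFP- replicates 1, 2 and 3 it was 50.2, 20.1 and 29.4. All 3 LSC GFP- arrays were marked as well above background and none of the LSC GFP+ arrays was, where 1 of the 3 signals was a substitute value that the software sets for dim spots. On the log2 scale these signals were -6.17, -6.55 and -5.77 against -3.00, -4.34 and -3.84, with means of -6.17 ± 0.39 and -3.73 ± 0.68 (SD, n = 3 each). The lowest LSC GFP- array, replicate 2, was above the highest LSC GFP+ array, replicate 3. The probe entered the test only through the LSC GFP- arrays, where it is high, and its measured difference of -2.44, with an adjusted p of 0.0984 in limma, rests on LSC GFP+ signals that are not above background.

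Because Srd5a2 was not well above background in LSC GFP+ cells, its fold change was estimated and not measured. Each LSC GFP+ array was set at the lowest signal that was well above background on it, between -4.66 and -4.27. Srd5a2 was then 1.62-fold higher in LSC GFP- cells. This is not a strict bound, since a spot without the mark can lie above that lowest signal. The populations then overlapped, with LSC GFP- replicate 2 (-4.341) below LSC GFP+ replicates 2 (-4.273) and 3 (-4.325). On the log2 scale the estimate is 0.69 between the means. It depends on the level that was set and is not a measured size like the 0.71 of Srd5a1. Normexp background correction with an offset of 50, which lifts dim signals, brought the difference to -0.53. The adjusted p of Srd5a2 stayed above 0.05 under every alternative in which the probe was tested, ranging from 0.0634 with the replicate number as a block to 0.416 with the methods' t-test.

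The ratio of the reductases within an array, which does not depend on how arrays are scaled to each other, is the log2 level of Srd5a1 minus that of Srd5a2. It was 5.94, 6.71 and 6.10 in LSC GFP+ replicates 1, 2 and 3 and 2.41, 3.47 and 3.43 in LSC GFP- replicates. The ratio itself compares different probes and says nothing on which enzyme is more abundant. Its mean shifted between the populations by 3.15 with the measured signals. The shift was 1.40 with Srd5a2 on each LSC GFP+ array at the lowest signal that was well above background there. The shift combines the 2 differences described above. An exact permutation of the 6 arrays gave p = 0.1 for both versions of it. That is the smallest p such a permutation can give here, so no conclusion is drawn from it.

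**Figure D2:**
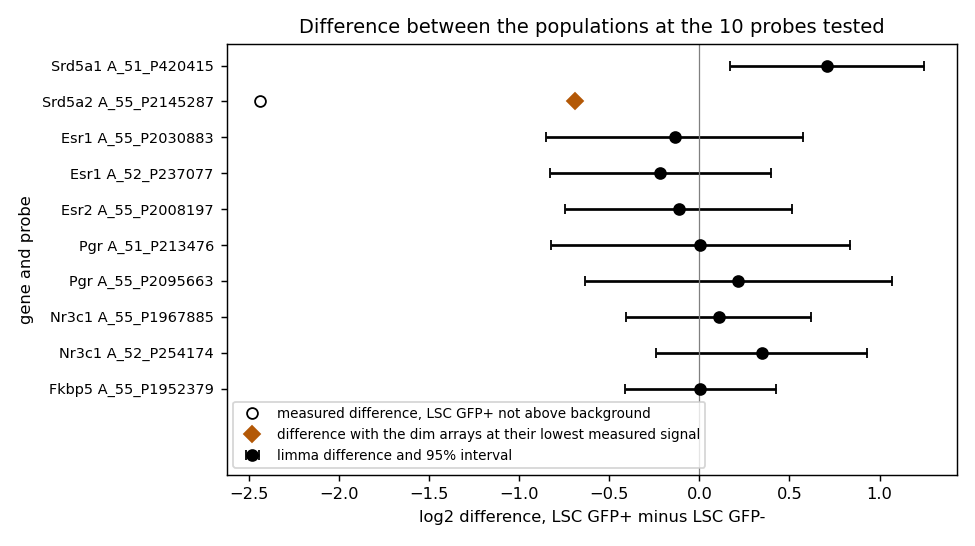
The log2 difference LSC GFP+ minus LSC GFP- is plotted for the 10 member probes tested, with its 95% interval from limma except for Srd5a2, whose LSC GFP+ signals are below the background limit. For Srd5a2 the open circle is the measured difference. The diamond is the difference with each LSC GFP+ array at the lowest signal that was well above background on it. The interval of Srd5a1 (0.17 to 1.25) excludes 0 and those of the 8 other probes include it.

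Some marker lists of cell types differed between the populations as well. Srd5a2 is known from mesenchyme, and the summed signal of 10 smooth muscle markers, led by Myl9, Tagln and Acta2, was 14.0, 9.12 and 14.2 times the array's 75th percentile in LSC GFP+ replicates 1, 2 and 3 and 55.7, 28.0 and 33.2 in LSC GFP- replicates. LSC GFP- replicate 1 was thus highest for Srd5a2 and for these markers, and LSC GFP- replicate 2 was lowest of the LSC GFP- arrays for both. This order was not particular to smooth muscle, as the summed stromal markers were at 77.5, 29.2 and 47.9 in LSC GFP- replicates 1, 2 and 3. At an unadjusted p under 0.05 in limma, 4.52% of all 16005 genes tested were higher in LSC GFP+ cells and 4.79% lower. At that threshold 8 of the 9 smooth muscle markers tested were lower in LSC GFP+ cells, and Lmod1 was not above background on any array. The 15 stromal markers on the array, led by Dcn, Col1a2 and Col3a1, summed to between 27.1 and 34.0 in LSC GFP+ cells and between 29.2 and 77.5 in LSC GFP- cells, with 2 higher and 7 lower of 13 tested. Dcn, the brightest, was one of the 2 higher, by 1.19, against -2.15 for Col1a2 and -1.97 for Col3a1. The 14 basal markers, led by Trp63, Krt15 and Krt5, summed to between 245 and 260 against 182 and 192, and of the 13 tested 8 were higher and none lower. Trp63, the brightest, was not among the 8, with a difference of 0.11 and an unadjusted p of 0.577 in limma. Dsg3 alone of the basal markers was not above background on any array. The gate on CD49f was meant to leave out the stromal fraction of the prostate, which carries Sca-1 without CD49f. The part that these cells or markers have in the differences of Srd5a1 and Srd5a2 was not tested, and in sorted bulk samples fewer cells of a type and less RNA per cell cannot be told apart.

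**Figure D3:**
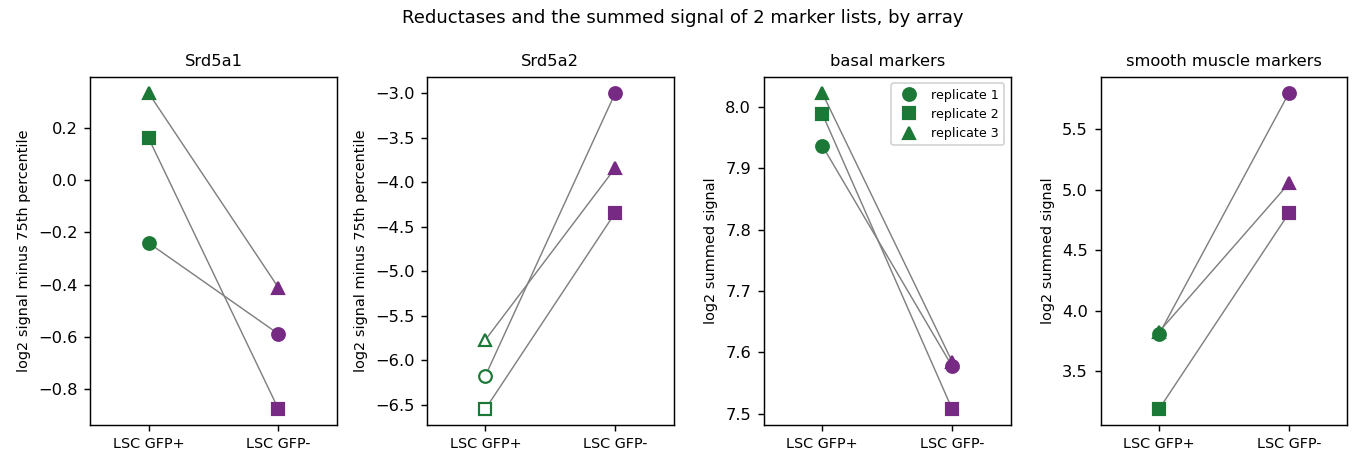
From left to right, the log2 level of Srd5a1 and Srd5a2 and the log2 summed signal of the basal and the smooth muscle marker lists are plotted for each array, with lines joining arrays of the same replicate number and open symbols for Srd5a2 where it was not well above background. Srd5a1 and the basal markers are higher on every LSC GFP+ array, and Srd5a2 and the smooth muscle markers on every LSC GFP- array.

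Among the other marker lists, the summed levels overlapped between the populations for luminal (189 to 274 in LSC GFP+ against 215 to 302 in LSC GFP-), endothelial (6.39 to 7.26 against 6.62 to 8.23), immune (243 to 320 against 264 to 302), glial and neuronal (86.3 to 137 against 94.6 to 171), red cell (1.01 to 4.59 against 1.53 to 3.41) and seminal vesicle and Wolffian duct markers (3.36 to 8.86 against 7.66 to 18.3). In each numbered pair the LSC GFP+ array was nevertheless the lower one for the luminal, the glial and neuronal, and the seminal vesicle and Wolffian duct markers. Over all genes tested, 4.79% were lower and 4.52% higher at an unadjusted p under 0.05. Of the seminal vesicle and Wolffian duct list, 3 of 7 genes tested were lower at that threshold and none higher, with a median difference of -1.28. Of the glial and neuronal list 1 of 7 was lower and none higher, with a median of -1.25 and no gene at a difference above 0. Of the luminal list 2 of 10 were lower and none higher, with a median of -0.225. A linear sum is carried by its brightest genes, led by Itgam in the immune list and Elavl4 in the glial and neuronal list. Their differences were -0.03 and -0.10. The part of these markers in the differences of the members was not tested. Immediate-early genes, which respond to handling as well as to signals, summed to between 324 and 423 in LSC GFP+ cells and between 174 and 269 in LSC GFP- cells. Lyz2 and Svs3a of these lists were not above background on any array. The arrays were alike in overall brightness, with a 75th percentile between 399 and 496 in scanner units and between 36651 and 42123 probes well above background, and no spot was saturated.

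Estrogen receptor α was measured by 4 probes, and none of them separated the populations. The brightest, the ligand-binding domain probe A_55_P2030883, gave -0.93, -1.78 and -1.37 in LSC GFP+ replicates 1, 2 and 3 and -1.73, -1.06 and -0.87 in LSC GFP- replicates. The populations overlapped, and the numbered pairs pointed both ways, with LSC GFP+ minus LSC GFP- at 0.80 for replicate 1, -0.72 for replicate 2 and -0.50 for replicate 3. The difference was -0.14 with a 95% interval from -0.85 to 0.58 and an unadjusted p of 0.670 in limma. A_52_P237077, in a later stretch of the same transcript from 5343056 to 5343115 on chromosome 10 of mm9, is spotted 10 times on each array. It gave -2.06, -1.13 and -1.77 in LSC GFP+ replicates and -1.35, -1.51 and -1.45 in LSC GFP- replicates, while its 10 spots differed on one array by an SD of only 0.07 to 0.17. The spread of this probe among LSC GFP+ samples (SD 0.48, n = 3) was therefore larger than its spread among spots and than its spread among LSC GFP- samples (SD 0.08, n = 3). Its difference was -0.22 with an interval from -0.83 to 0.40 and an unadjusted p of 0.439.

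The other 2 probes of Esr1 were too dim for the test. A_51_P474658 exceeded background on 1 of 3 LSC GFP+ and 2 of 3 LSC GFP- arrays, with means of -4.80 and -4.19. A_66_P138072, whose accession in the array design is a cDNA clone and not the Esr1 transcript of the other probes, was well above background on 1 array only, LSC GFP+ replicate 3.

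Estrogen receptor β was read by 1 probe, A_55_P2008197 on chromosome 12 of mm9 from 77221426 to 77221485, with a signal near the top of the array. Its log2 level was 5.95, 5.84 and 5.34 in LSC GFP+ replicates 1, 2 and 3 and 5.83, 6.21 and 5.43 in LSC GFP- replicates. Replicate 3 was lowest in both populations, and the populations overlapped. The difference was -0.12 with a 95% interval from -0.74 to 0.51 and an unadjusted p of 0.684. This level is uncertain as a level of Esr2, because the probe shares a run of 20 bases with the probe of 1 other transcript on the array and with 13 promoter windows of other genes in RefSeq (GRCm38.p6), which the other 11 member probes do not. A transcript from another locus that holds this stretch could add to the signal, and its share was not tested.

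The progesterone receptor had 2 probes, both well above background on all 6 arrays and both dim. A_51_P213476 gave -2.69, -2.35 and -2.05 in LSC GFP+ replicates 1, 2 and 3 and -2.12, -3.15 and -1.83 in LSC GFP- replicates. The LSC GFP- samples held both the highest and the lowest value, so that the LSC GFP+ samples lay within their range. The difference was 0.005 with an interval from -0.83 to 0.84 and an unadjusted p of 0.989. A_55_P2095663, further along the transcript, gave a difference of 0.22 with an interval from -0.64 to 1.07 and an unadjusted p of 0.573. Both intervals span more than a 1.5-fold change in either direction, so these arrays bound Pgr only loosely.

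The glucocorticoid receptor gene was measured at a higher signal and more tightly. Its probe A_55_P1967885 gave 0.18, 0.52 and -0.07 in LSC GFP+ replicates 1, 2 and 3 and -0.05, 0.27 and 0.10 in LSC GFP- replicates. The populations overlapped, with replicates 1 and 2 higher and replicate 3 lower in LSC GFP+ cells. The difference was 0.11 with a 95% interval from -0.41 to 0.62 and an unadjusted p of 0.642. The second probe, A_52_P254174, had means of -1.08 ± 0.16 and -1.43 ± 0.42 (SD, n = 3 each), and its difference of 0.35 had an interval from -0.24 to 0.93 and an unadjusted p of 0.210.

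Fkbp5, the co-chaperone, varied least. Its probe A_55_P1952379 lies on chromosome 17 of mm9, from 28536060 to 28536119, and its log2 level was -0.10, 0.07 and 0.13 in LSC GFP+ replicates 1, 2 and 3 and -0.02, 0.07 and 0.03 in LSC GFP- replicates. All 6 values lay within the range of the LSC GFP+ samples. The difference was 0.005 with an interval from -0.42 to 0.43 and an unadjusted p of 0.977, and the SD among samples was 0.12 and 0.05 (n = 3 each). Of all member probes tested, this one had the narrowest interval.

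Whether the other genes around the receptors differed was examined with 6 lists, each gene at its brightest probe, with 0 to 6 members of a list past an unadjusted p of 0.05 in each direction. None of the genes of these lists named below passed 0.05 after adjustment over all probes. Over all 16005 genes tested, the share past that threshold was 4.52% for genes higher in LSC GFP+ cells and 4.79% for genes lower there, and the median difference was 0.01. The receptor relatives, which hold the mineralocorticoid receptor, the estrogen-related receptors, membrane progestin receptors and orphan receptors, had 17 genes tested with 0 higher and 1 lower and a median of -0.04. The lower gene was the membrane progestin receptor Paqr5, with -2.45, -2.14 and -1.40 in LSC GFP+ replicates 1, 2 and 3 and -1.15, -0.78 and -0.40 in LSC GFP- replicates and a difference of -1.22. Of the 21 genes of steroid synthesis and metabolism tested, 1 was higher and 1 lower, with a median of -0.08. Cyp7b1, an oxysterol and steroid hydroxylase, differed by 0.53, although it was above background on 2 of 3 LSC GFP- arrays and so entered the test through LSC GFP+ cells alone, and Cyp1b1, an estrogen hydroxylase, by -1.51, with its highest level of -0.06 in LSC GFP- replicate 1, the sample that was also highest for Srd5a2.

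The chaperones and co-regulators stood at a median of 0.14, with 30 of 42 genes tested at a difference above 0, beside 8306 of 16005 over all genes. Called were 4 higher and 2 lower, or 9.52% and 4.76%. Hoxb13, a homeobox factor of the hindgut and prostate, was at 0.79, 1.18 and 1.23 in LSC GFP+ replicates 1, 2 and 3 and at 0.33, -0.03 and 0.51 in LSC GFP- replicates, a difference of 0.80 (standard error 0.23, adjusted p 0.328 in limma). The LIM co-activator Fhl2 was higher by 0.63, the pioneer factor Foxa1 by 0.58 and the co-activator Ncoa1 by 0.45. Lower were Tgfb1i1, a focal adhesion protein and receptor co-activator known from smooth muscle, by -1.52, and Gata2, a zinc finger factor, by -0.99.

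Genes known to respond to androgen had 3 higher and 4 lower of 27 tested, 11.1% and 14.8%, and their median was -0.09. The higher genes were Abcc4, a transporter of organic anions, by 1.23, Homer2, a scaffold protein, by 0.91 and Acpp, prostatic acid phosphatase, by 0.72. The lower genes were Defb50, a defensin, by -1.88, Cdh16, a kidney and urogenital cadherin, by -1.57, Camkk2, a kinase that activates AMPK, by -0.67 and Tmprss2, a membrane serine protease, by -0.54. Abcc4 was -0.17, -0.16 and -0.79 in LSC GFP+ replicates 1, 2 and 3 and -1.59, -1.69 and -1.54 in LSC GFP- replicates. Cdh16 was 1.15, 2.12 and 2.64 against 3.16, 3.68 and 3.79. For both the populations did not overlap, and the androgen response genes thus held members on both sides with no common direction. Defb50 exceeded background on 1 of 3 LSC GFP+ arrays and entered the test through LSC GFP- cells alone, so its difference rests partly on signals below the limit.

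Among 28 tested genes known to respond to glucocorticoids, 4 were higher and 1 lower, 14.3% and 3.57%, with a median of 0.05. The higher genes were the metallothioneins Mt2, by 1.21, and Mt1, by 0.69, the cell cycle inhibitor Cdkn1c, by 0.99, and the transcription factor Cebpb, by 0.53. Mt2 was 5.79, 5.81 and 5.84 in LSC GFP+ replicates 1, 2 and 3 and 4.71, 4.38 and 4.73 in LSC GFP- replicates, with an adjusted p of 0.0993 in limma. Its level was nearly the same in the 3 LSC GFP+ samples (SD 0.02, n = 3). Metallothioneins also respond to metals and stress, and the summed immediate-early genes were higher on every LSC GFP+ array, as given above. Their part in these differences was not tested.

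Genes known to respond to estrogen or progesterone had 6 higher and 6 lower of 26 tested, with a median of -0.07. That is 23.1% in each direction, beside 4.52% higher and 4.79% lower over all genes. This list, like the others, was fixed with earlier results of these data known, so the shares are a description only. Higher were Igfbp4, a binding protein of insulin-like growth factors, by 1.31, Rerg, a small GTPase, by 1.02, the G1 cyclin Ccnd1 by 0.78 and the transcription factor Myb by 0.69. Lower were Ltf, the secreted lactotransferrin, by -1.72, Cxcl12, a chemokine of stromal cells, by -1.58, Lifr, a cytokine receptor, by -1.44 and Muc1, an epithelial mucin, by -0.62. Igfbp4 was 1.34, 1.46 and 1.38 in LSC GFP+ replicates 1, 2 and 3 and 0.15, -0.34 and 0.44 in LSC GFP- replicates. Cxcl12 was 0.70, 0.31 and 0.71 against 2.53, 1.65 and 2.28. Its order among the LSC GFP- samples, with replicate 1 highest and replicate 2 lowest, was that of the summed smooth muscle and stromal markers. Of the other lower genes named, Ltf (1.098, 0.55 and 0.705) and Lifr (1.165, 0.454 and 0.73) had the same order there. Muc1 (-2.77, -2.484 and -2.577) did not. The part of the marker genes in these differences was not tested.

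**Figure D4:**
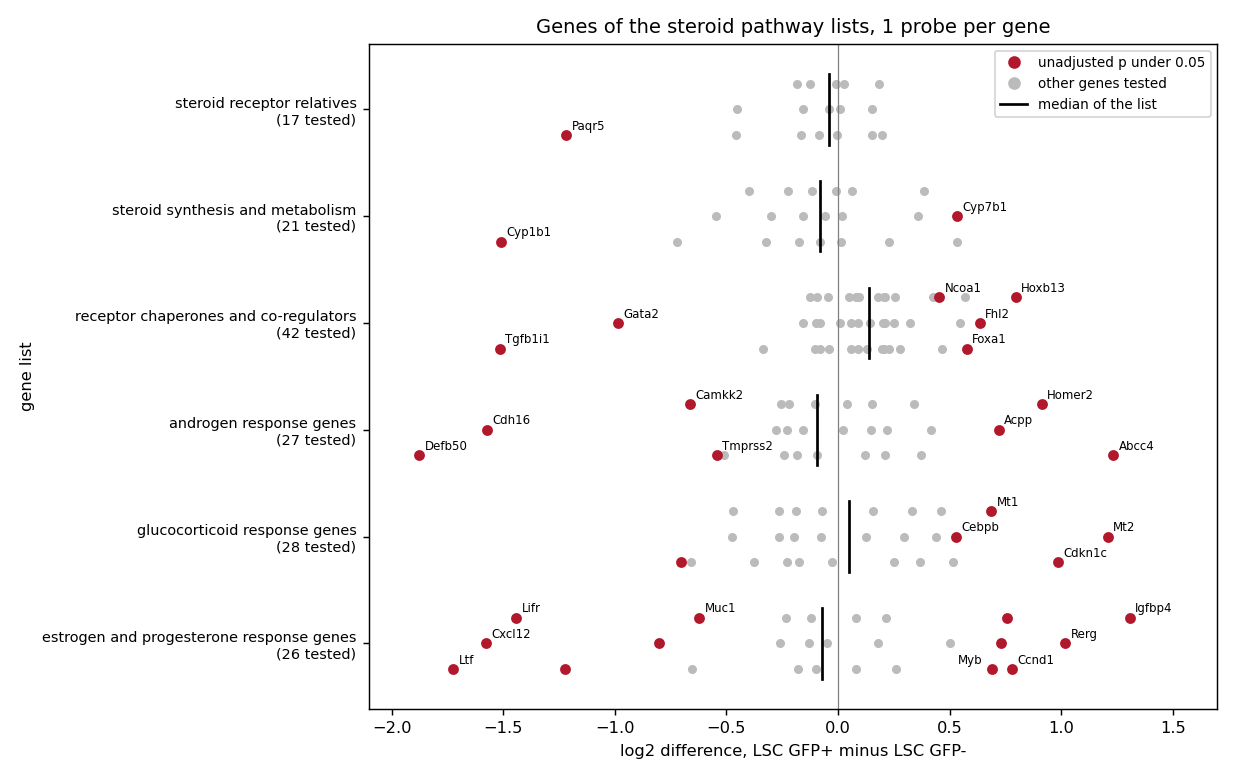
Each point is the log2 difference LSC GFP+ minus LSC GFP- of 1 gene at its brightest probe, for 6 lists of genes around the steroid receptors, with red points for an unadjusted p under 0.05 in limma and a black line at the median of each list. The medians lie between -0.09 and 0.14, and red points stand on both sides of 0 in all lists but the receptor relatives.

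The genes whose log2 signal followed a member most closely over the 6 arrays are given as a description, among 15003 other genes well above background on every array. Srd5a1 was followed by Mfge8 (r = 0.9985), the basal keratin gene Krt5 (0.9971) and Abce1 (0.9962). Esr1 was followed by Ang (0.9803), Esr2 by Rhobtb1 (0.9988), Pgr by Snap47 (0.9878), Nr3c1 by Ahctf1 (0.9898) and Fkbp5 by Pigk (0.9949). The points of each correlation share their arrays and include both populations, so a pattern that separates the populations, as for Srd5a1, draws genes that separate them too.

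**Figure D5:**
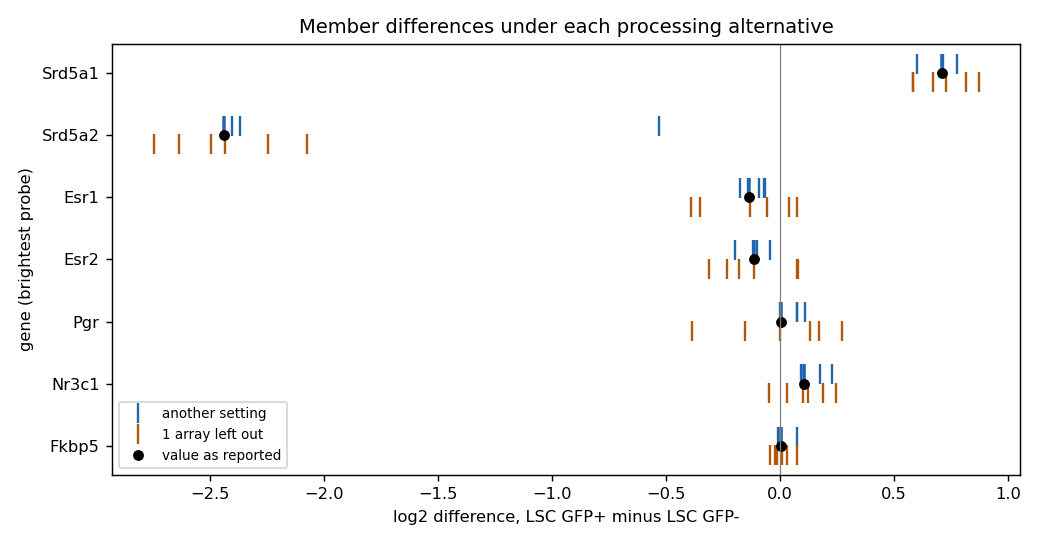
The log2 difference LSC GFP+ minus LSC GFP- of each member at its brightest probe is plotted as reported (dots), under the other settings (blue ticks) and with 1 array left out (orange ticks). Srd5a1 stays between 0.58 and 0.87 and Srd5a2 between -2.75 and -0.53, while Esr1, Esr2, Pgr, Nr3c1 and Fkbp5 have values on both sides of 0. The LSC GFP+ signals behind the Srd5a2 values are not above background.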

How the data were processed

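Total RNA of 6 sorted samples, 3 LSC GFP+ and 3 LSC GFP-, was amplified, labeled with Cy3 and hybridized to SurePrint G3 Mouse arrays of 1 slide in 1 scan, so slides cannot be compared. The authors deposited Agilent Feature Extraction files, version 11.0.1.1 per the file headers and 10.7.3.1 in the submitters' processing notes. The deposited intensity values are linear processed signals, background-subtracted and detrended, with substitute values for dim spots and no scaling between arrays. A table of the whole series holds the same intensity values, rounded, and served as an alternative.

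Here the log2 signal minus the array's 75th percentile was averaged over the spots of a probe, without outlier spots (123 to 154 per array). A probe was tested if the software marked it as well above background on every array of either population. The test was limma 3.58.1 (lmFit, eBayes) under R 4.3.3, two-sided, with Benjamini-Hochberg adjustment over 37005 probes. Scripts were tested on simulated data. The methods of the study name a t-test with an unadjusted threshold and state neither scaling nor pairing. Alternatives were the methods' t-test, normexp, quantile or median scaling, other filters, an intensity trend, the replicate block, outlier spots kept, the mean over a gene's probes and each array left out. RefSeq accessions gave symbols to 26582 probes (GRCm38.p6, names only). Other probes kept the design's names. Probe coordinates are those of mm9 in the array design. Samples with the same number in their labels deviated together from the population means (r = 0.433, 0.277 and 0.668 for replicates 1, 2 and 3). These values meet the set limit of 0.1 for treating the numbers as pairs. So does the unmatched LSC GFP+ replicate 1 with LSC GFP- replicate 2 (r = 0.223), while the other unmatched correlations ran from -0.547 to -0.093. Because the methods do not state pairing, differences, intervals and p-values are those of the unpaired fit unless the replicate block is named. The p-values measure the spread between these samples only, and the number of arrays limits the precision.

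The members and gene lists were chosen with earlier results of these data known, and members of these lists that are not reported here were left out of their counts. Named are all member probes and, per list and direction, at most 4 genes with the smallest p among those past an unadjusted p of 0.05 without overlap, of marker lists the 3 brightest or those never above background, and the genes most like each member, of which 3 were computed.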

Additional observations from a re-analysis of the deposited data

Results flagged for a closer look

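The Esr1 probe A_66_P138072 was outside the main comparison because it was dim on 5 of 6 arrays. On LSC GFP+ replicate 3, however, it reached a log2 level of -0.61, a processed signal of 270 where the other 5 arrays gave between 5.38 and 19.5. No LSC GFP- array was well above background at this probe, and on LSC GFP+ replicate 3 the other Esr1 probes lay within the range of the other arrays. It is a signal in data the main comparison did not use, on 1 spot of 1 array. The looser filters let the probe in. With signal above background required on at least 1 array, its difference was 1.218 with an unadjusted p of 0.418 in limma.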

How the results depend on the processing

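Srd5a1 kept its direction under all 17 alternatives. Srd5a2 kept it under all 16 in which it was tested. For Srd5a2 this adds no support, because its probe was well above background on the LSC GFP- arrays alone. Requiring signal above background on all 6 arrays drops that probe and leaves 1 member probe past an unadjusted p of 0.05 in place of 2. With each array left out in turn, that count was 1 to 2, Srd5a1 ranged from 0.584 to 0.872, Srd5a2 from -2.748 to -2.075, Esr1 from -0.39 to 0.075, Esr2 from -0.31 to 0.079, Pgr from -0.386 to 0.272, Nr3c1 from -0.047 to 0.246 and Fkbp5 from -0.043 to 0.072. Normexp turned Pgr to -0.001 and Fkbp5 to -0.011. No member passed an adjusted p of 0.05 under any alternative. Over all probes, 2925 passed an unadjusted p of 0.05, 2283 to 4061 with 1 array left out. The 1 probe past adjustment became 3 under quantile normalization and 3 under array median scaling, and 0 under normexp, the methods' t-test, the intensity trend, the replicate block and each other filter (0 to 4 with 1 array left out). Scaling moved the split of 1250 higher and 1675 lower probes to 1471 and 1299 (array median) and 1668 and 1606 (quantile). The cause was not tested.

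With the replicate block, which pairs the samples, 5480 probes passed the unadjusted threshold, the members called were still 2, and the genes called numbered 2 of the receptor relatives, 5 of synthesis and metabolism, 10 of the chaperones and co-regulators and 11 of the glucocorticoid response genes. The receptor relatives had 2 genes called in place of 1 under normexp, under quantile normalization and with signal above background required on at least 1 array, and 3 without a filter. Synthesis and metabolism had 1 in place of 2 under normexp, the intensity trend and the filter on all 6 arrays. The glucocorticoid response genes had 3 in place of 5 without a filter and with the methods' t-test. With 1 array left out the counts were 1 to 2, 1 to 7, 3 to 8, 4 to 6, 2 to 6 and 11 to 13 for the 6 lists in the order of the text. Synthesis and metabolism had 7 without LSC GFP+ replicate 1. The chaperones and co-regulators had 3 without replicate 2 of either population, and the androgen response genes had 4 without LSC GFP+ replicate 2 or LSC GFP- replicate 1. The glucocorticoid response genes had 2 without LSC GFP- replicate 2 and 3 without LSC GFP+ replicate 2.

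Signal over background limits Srd5a2, the dim Esr1 probes and Pgr, and 3 samples per population limit all members.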
